A study of Mus musculus with 18 samples.

Results

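The thymidines of VH186.2, the mouse heavy chain V segment Ighv1-72 (allele IGHV1-72*01), are described here as sites of somatic hypermutation. All T nucleotides of the germline segment from nucleotide 30 to T285 were taken, counted from 1 at the start of the segment, without nucleotides 97 to 99, which form codon 33 and whose replacement is selected during the response to the hapten NP. A site is named by its base and its nucleotide, so that T33 is the T at nucleotide 33 and T33G its change to G. The rule gave 56 T sites among the 276 positions that the deposited lists cover. Of these sites 21 carried the motif TW, a T followed by A or T, and 35 did not and are called other T sites. The sites were chosen by sequence and not by how often they were mutated. They held 516.5 mutations per iteration, 4.41% of all mutations listed, of which 177.3 were at TW and 339.2 at other T sites.

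Spleen cDNA came from 18 mice on a C57BL/6 background, age-matched and immunized a single time with NP-CGG on alum, 10 days before the spleen was taken. The groups were 7 Exo1+/+ mice, 8 Exo1DA/DA mice, whose EXO1 carries the nuclease-dead D173A exchange introduced into zygotes by CRISPR/Cas9, and 3 Exo1-/- mice, which lack the protein. VH186.2 was amplified by nested PCR and sequenced in both directions, and the authors then drew 1 sequence from each CDR3 clone in 1000 iterations. Each line of their lists is 1 mutation of a drawn sequence, so a clone without a mutation has no line and every percentage below is of mutated clones. The mice are numbered here within their genotype in the order of the lists' dataset numbers, which were not tied to single samples, so that the number is a name only. Mutated clones per iteration ranged from 37.0 to 323.9 in Exo1+/+ mice with a median of 108.7 and from 21.0 to 167.8 in Exo1DA/DA mice with a median of 63.2. Exo1-/- mice had 71.0, 254.2 and 85.5. Since the source is RNA of the whole spleen, fewer mutated B cells and less VH186.2 RNA per cell cannot be told apart behind a clone number.

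Activation-induced deaminase turns cytidines into uridines and does not itself act on T or A. Mutations at A:T pairs arise in a second phase, in which EXO1 resects the strand near the U:G mismatch and DNA polymerase η fills the gap with errors that fall mostly on the A of a WA motif (W is A or T). A TW motif is WA read on the other strand, so an error at that A on the transcribed strand is read as a mutation of the T of TW on the coding strand. In immunoglobulin V segments A is usually mutated more often than T.

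The germline window is given so that each site can be found, with the TW sites in capitals and all other bases in lower case, read 5′ to 3′.

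VH186.2 from nucleotide 30 to T285: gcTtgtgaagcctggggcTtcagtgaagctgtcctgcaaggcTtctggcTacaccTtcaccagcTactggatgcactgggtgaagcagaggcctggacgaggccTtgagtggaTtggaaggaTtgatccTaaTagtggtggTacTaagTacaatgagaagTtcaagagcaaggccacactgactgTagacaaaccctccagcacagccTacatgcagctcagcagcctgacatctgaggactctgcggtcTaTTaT

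Some mice shared sequences, and this was measured before the groups were compared. A sequence with at least 6 mutations was called shared if a sequence of another mouse had a Jaccard index of at least 0.7 with it, that is, if at least 0.7 of the mutations found in either were found in both. Such sequences made up 76.1% of the mutated clones of Exo1DA/DA mouse 6, 62.6% of mouse 1, 55.6% of mouse 7 and 42.5% of mouse 5 of that genotype, 39.3% of Exo1+/+ mouse 5 and 34.1% of Exo1+/+ mouse 6, and 34.4% of Exo1-/- mouse 2 and 22.6% of Exo1-/- mouse 1. In Exo1+/+ mouse 2 the share was 18.0%, and in each of the others it was 11.6% or less. Among the clones with a T mutation, shared sequences were 100% in Exo1DA/DA mouse 6, 73.9% in mouse 1, 52.3% in mouse 7 and 43.8% in mouse 5. They were 41.2% in Exo1+/+ mouse 2, 32.4% in mouse 6 and 28.1% in mouse 5, 50.2% in Exo1-/- mouse 2, and 0% to 10.9% in the remaining 10 mice. Matches also crossed genotypes. Of the T clones of Exo1DA/DA mouse 6, 100% matched Exo1+/+ mouse 5, and of those of Exo1DA/DA mouse 1, 73.9% matched Exo1+/+ mouse 6. Among the T clones of Exo1-/- mouse 2, 50.2% matched Exo1+/+ mouse 5. Matching sequences were thus counted on both sides of comparisons of genotypes. The origin of the shared sequences was not tested, and the T, TW and other T frequencies of the genotypes and the leading values at T33, T85 and T264 to T283 are also given without them.

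To compare mice of different clone number, the percentage of a mouse's mutated clones that was changed at each T site was averaged over the 56 sites. In Exo1+/+ mice this frequency was lowest in mouse 5 with 0.193%, had a median of 0.455% and was highest in mouse 1 with 1.11%. In Exo1DA/DA mice it ran from 0.143% in mice 3 and 5 over a median of 0.334% to 1.72% in mouse 6. The Exo1-/- mice 1, 2 and 3 had 0.0676%, 0.0447% and 0.569%. The groups overlapped. Exo1-/- mice 1 and 2 lay below each mouse of the other genotypes, while Exo1-/- mouse 3 lay above 5 of the 7 Exo1+/+ mice.

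The means were 0.531% ± 0.308 (SD, n = 7) in Exo1+/+, 0.519% ± 0.529 (n = 8) in Exo1DA/DA and 0.227% ± 0.297 (n = 3) in Exo1-/- mice. In a 2-sided exact permutation test over mice, Exo1DA/DA differed from Exo1+/+ by -0.0117 percentage points (p = 0.961, and the same after Benjamini-Hochberg adjustment over 15 comparisons of genotypes). Exo1-/- differed from Exo1+/+ by -0.304 (exact permutation, p = 0.175, adjusted p = 0.805), and Exo1DA/DA from Exo1-/- by 0.292 (exact permutation, p = 0.436, adjusted p = 0.805). None of the 3 differences exceeded the spread between mice. Taken as a share of all mutations of a mouse in the window, in place of its clones, T sites held medians of 5.64%, 3.71% and 0.892% for Exo1+/+, Exo1DA/DA and Exo1-/- mice in turn, with means of 7.41%, 5.89% and 6.74%. Per site of the 56, the mean of Exo1-/- mice then differed from that of Exo1+/+ mice by -0.0119 percentage points (exact permutation, p = 0.875). With the shared sequences removed from all mice, the Exo1DA/DA mean was 0.293% ± 0.243, the Exo1+/+ mean 0.518% ± 0.295 and the Exo1-/- mean 0.234% ± 0.304, and Exo1DA/DA differed from Exo1+/+ by -0.225 with p = 0.132 (exact permutation). The difference of -0.0117 was 0.0843 without Exo1+/+ mouse 1 and -0.184 without Exo1DA/DA mouse 6.

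A single mouse held about as many T mutations as all others of its genotype together, or more. Of 278.0 T mutations per iteration in Exo1+/+ mice 47.6% came from mouse 2, of 202.1 in Exo1DA/DA mice 51.6% came from mouse 6, and of 36.3 in Exo1-/- mice 75.1% came from mouse 3. At least 1 T mutation was carried by 26.2% ± 11.9 of the mutated clones of an Exo1+/+ mouse and by 25.8% ± 22.0 of those of an Exo1DA/DA mouse, with 71.9% in mouse 6. The values of the Exo1-/- mice were 3.78%, 2.25% and 31.9%. Most of these clones had a single T mutation in each mouse. The share with 2 was highest in Exo1+/+ mouse 1 with 44.1% and in Exo1DA/DA mouse 6 with 34.2%.

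The T sites were then set against the 65 A sites of the same window, the counterpart on the same strand. In Exo1+/+ mice A sites were changed in 1.65% ± 1.42 of clones per site and T sites in 0.531%, a difference of -1.12 that was found in 5 of 7 mice (exact permutation of signs, p = 0.0625, adjusted over 9 comparisons 0.281). Exo1+/+ mouse 4 had the largest difference, -4.04, and without it the mean difference was -0.633 (exact permutation of signs, p = 0.125). In Exo1+/+ mice 6 and 7 the T sites were slightly above the A sites, by 0.0440 and 0.0676. In Exo1DA/DA mice T exceeded A by 0.125 on average (A sites 0.395% ± 0.272; T lower in 4 of 8 mice; exact permutation p = 0.727). This average came from Exo1DA/DA mouse 6, where T exceeded A by 1.62, and without it the difference was -0.0893. In Exo1-/- mice the difference was -0.0660 (A sites 0.293% ± 0.0684; T lower in 2 of 3; exact permutation p = 0.75, where 0.25 is the smallest p that 3 mice allow).

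**Figure D1:**
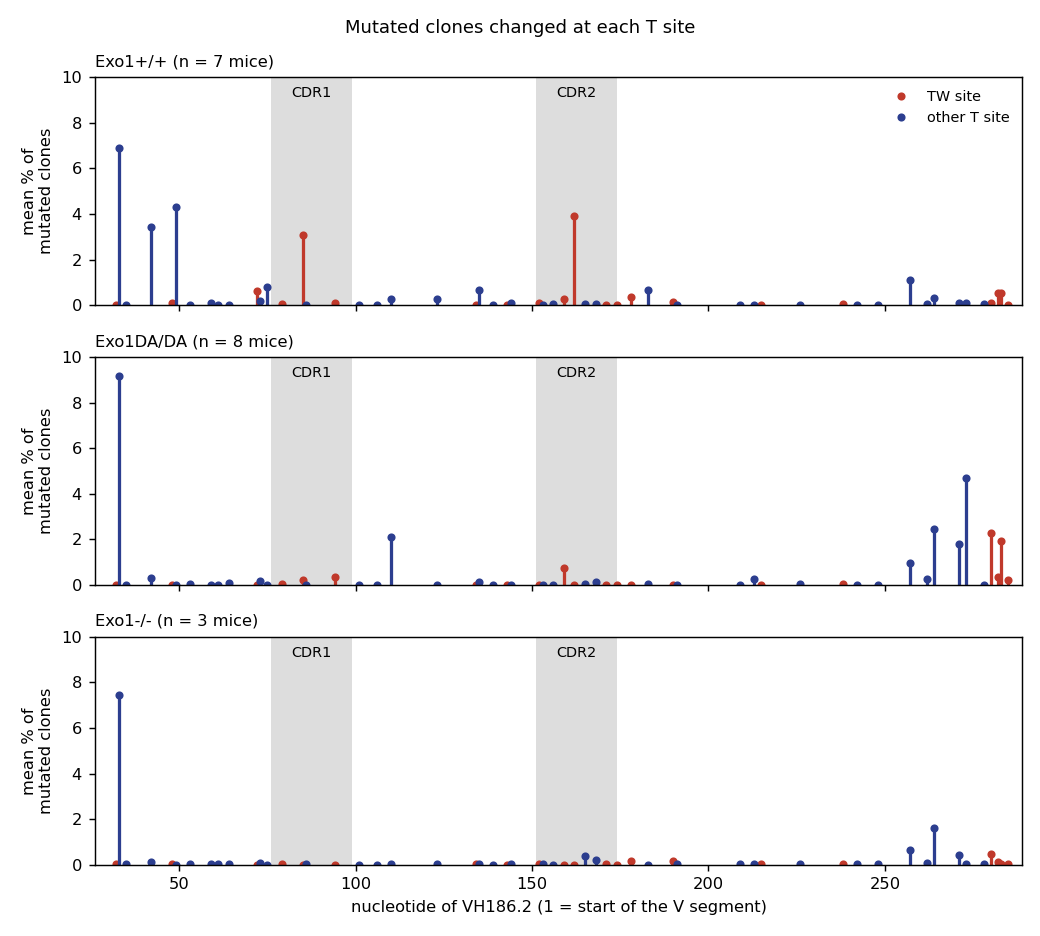
The mean percentage of mutated clones changed at each of the 56 T sites is plotted against the nucleotide of VH186.2, in a panel for each genotype, with TW sites and other T sites in different colours. Most sites lie close to 0, and the highest mean of each genotype is at T33, an other T site, with 6.89%, 9.17% and 7.43% from the top panel to the bottom.

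At TW sites, where Polη errors are read from the other strand, the frequency in Exo1+/+ mice ranged from 0.0186% in mouse 3 over a median of 0.156% to 1.53% in mouse 2. In Exo1DA/DA mice it ranged from 0.0123% in mouse 1 over a median of 0.0759% to 1.67% in mouse 6, and in the Exo1-/- mice it was 0.138%, 0.0088% and 0.0342%. Exo1+/+ mice 1 and 2 and Exo1DA/DA mouse 6 stood above 1%, and all other mice were at 0.451% or less. The Exo1+/+ mean was 0.476% ± 0.595, the Exo1DA/DA mean 0.296% ± 0.566 and the Exo1-/- mean 0.0604% ± 0.0685. Against Exo1+/+ the difference was -0.179 in Exo1DA/DA (exact permutation, p = 0.567) and -0.415 in Exo1-/- mice (exact permutation, p = 0.225), and the mutants differed by 0.236 (exact permutation, p = 0.558), each with an adjusted p of 0.805. Mouse 2 alone held 83.0% of the TW mutations of Exo1+/+ mice, mouse 6 held 77.5% of those of Exo1DA/DA mice and mouse 1 held 65.5% of those of Exo1-/- mice. Without Exo1+/+ mouse 2 the difference of -0.179 was -0.00359, and without Exo1DA/DA mouse 6 it was -0.375. Removal of the shared sequences gave 0.413%, 0.102% and 0.0711% (Exo1DA/DA against Exo1+/+, exact permutation p = 0.0855).

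At other T sites the frequency ranged from 0.160% to 1.13% in Exo1+/+ mice with a median of 0.671%, from 0.217% to 1.76% in Exo1DA/DA mice with a median of 0.467%, and was 0.0252%, 0.0663% and 0.891% in the Exo1-/- mice. The means were 0.564% ± 0.366, 0.653% ± 0.554 and 0.327% ± 0.488. None of the 3 comparisons passed (exact permutation, p = 0.728, 0.408 and 0.4, adjusted p = 0.805). The Exo1DA/DA mean was above that of Exo1+/+ by 0.0889, but without Exo1DA/DA mouse 6 the difference was -0.0689. With the shared sequences removed the Exo1+/+ mean was 0.581%, the Exo1DA/DA mean 0.407% and the Exo1-/- mean 0.331%, and Exo1DA/DA differed from Exo1+/+ by -0.173 (exact permutation, p = 0.380).

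Within a mouse the 2 classes of sites were read from the same clones. TW sites were changed less often than other T sites in 8 of 8 Exo1DA/DA mice, with a mean difference of -0.356 (exact permutation of signs, p = 0.0078125, the smallest that 8 mice allow; adjusted p = 0.0703). They were lower in 5 of 7 Exo1+/+ mice, with a mean difference of -0.0884 (exact permutation p = 0.766), and in 2 of 3 Exo1-/- mice, with a mean difference of -0.267 (exact permutation p = 0.75). The 2 Exo1+/+ exceptions were mice 2 and 4, in which TW exceeded other T by 1.28 and 0.291. The difference between TW and other T did not differ between genotypes by more than the spread between mice (exact permutation, p = 0.403, 0.692 and 0.752). With lineages counted 1 time, as described below, the Exo1DA/DA difference was -0.0489 (exact permutation, p = 0.125), and with only sequences drawn in all 1000 iterations it was -0.328 (exact permutation, p = 0.0625). T33 carried much of the difference. Without it the difference of TW minus other T was -0.106 in Exo1DA/DA mice (exact permutation p = 0.0547), 0.0976 in Exo1+/+ mice (exact permutation p = 0.719) and -0.0582 in Exo1-/- mice (exact permutation p = 0.75).

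**Figure D2:**
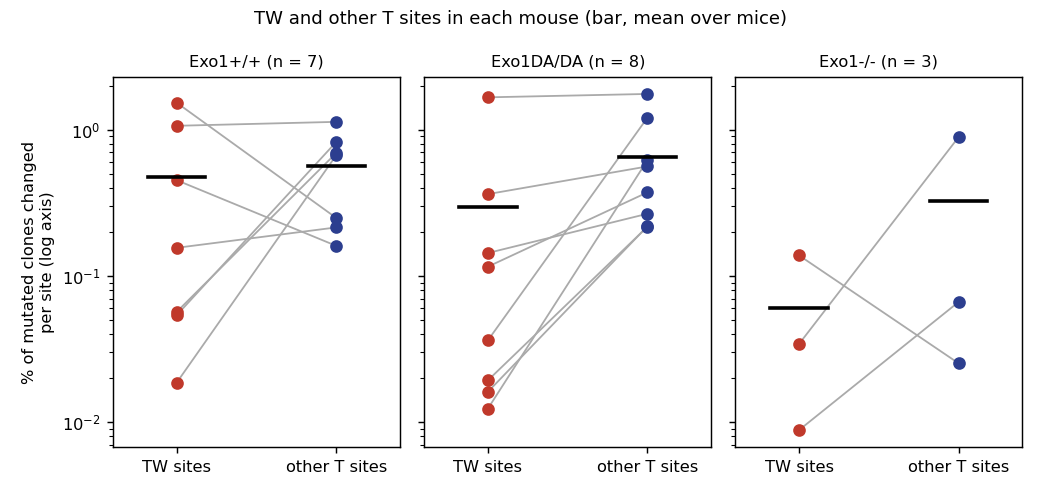
The percentage of mutated clones changed per site is shown on a log axis for TW and other T sites, with a line for each mouse and a bar for the mean of each genotype. TW lies below other T in all 8 Exo1DA/DA mice, in 5 of 7 Exo1+/+ mice and in 2 of 3 Exo1-/- mice, and Exo1+/+ mice 1 and 2 and Exo1DA/DA mouse 6 are the only ones above 1% at TW.

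The T mutations were concentrated at few positions. Each of the 56 T sites was changed at least once in the lists, but only 24 of them reached 1% of the mutated clones in any mouse, 10 TW and 14 other T sites. Of these 24, 12 reached 1% in a single mouse and 12 in 2 or more. Among 1008 combinations of site and mouse 48 were at 1% or above. The 3 most mutated sites held 50.7% and the first 6 held 65.5% of all T mutations, and in 9 of 18 mice a single site held more than 50% of the T mutations of that mouse. Among TW sites, with all mice pooled, T85 held 38.5%, T162 held 16.8%, T280 held 12.6% and T283 held 11.5% of the mutations. This order follows the mouse with most clones, and with mice weighted equally T162 came first with a mean of 1.52% of clones, before T85 with 1.28% and T280 with 1.14%. In the pooled count T33 held 45.6% of the mutations at other T sites.

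These values often rest on few clones. Of the 48 values of 1% or more, 28 rested on fewer than 5 clones and 17 on at least 10. In 22 of them a single lineage held at least 90% of the clones, where a lineage joins sequences of a mouse with 4 or more mutations each whose Jaccard index reached 0.7. Sequences with fewer mutations cannot be joined by this rule and count alone. Intervals below are 95% exact Clopper-Pearson intervals on clone numbers rounded to whole clones, and they cover counting error only.

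**Figure D3:**
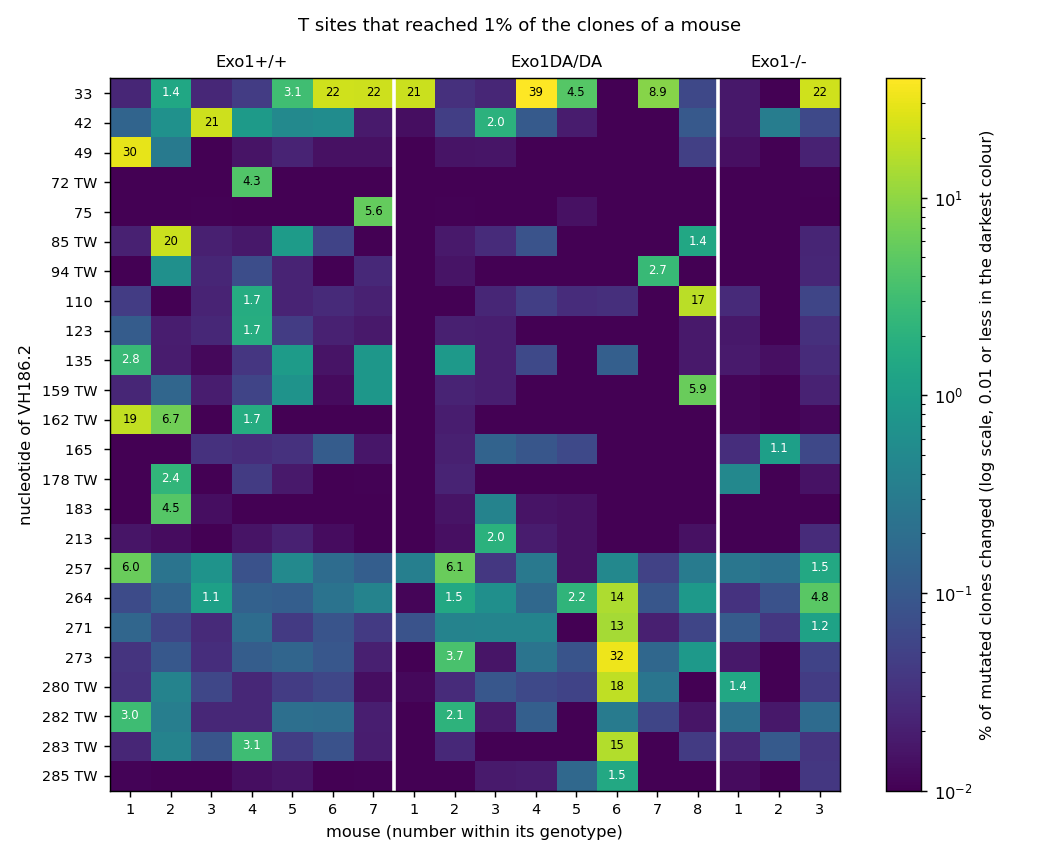
The 24 T sites that reached 1% of the clones of a mouse are drawn by nucleotide (rows) and mouse (columns, grouped by genotype), with the shade giving the percentage of mutated clones changed. T33 is at 1% or above in 9 mice of all 3 genotypes, 12 of the sites are so in a single mouse, and Exo1DA/DA mouse 6 has 6 such values between T264 and T285.

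Positions were tested for a difference between genotypes over all 276 positions of the lists by exact permutation with Benjamini-Hochberg adjustment. No position had an adjusted p below 0.05 in any of the 3 comparisons (0% of all positions, and 0 of 56 T sites), and the lowest adjusted p at a T site by exact permutation was 0.236 for Exo1DA/DA and 0.940 for Exo1-/- against the Exo1+/+ mice, and 0.963 between the mutants. At an unadjusted p below 0.05, 7 of 56 T sites stood out between Exo1DA/DA and Exo1+/+ mice, all lower in Exo1DA/DA, against 7.97% of all positions in either direction. These were T59, T123, T152, T153, T162, T178 and T278. In the other comparisons 0 of 56 T sites passed this limit, where 0.362% of all positions passed for Exo1-/- against Exo1+/+ mice and 2.54% passed between the mutants. The largest of the 7 differences was at T162, with 3.91% in Exo1+/+ and 0.00428% in Exo1DA/DA mice (exact permutation, p = 0.0309, adjusted p = 0.553), and the lowest p was at T123, with 0.281% and 0.0115% (exact permutation, p = 0.00171, adjusted p = 0.236). At T123 Exo1+/+ mouse 4 had 1.73%, on 1.015 clones, and the next highest mouse 0.111%. Some of the 7 sites were near 0 in both genotypes, as T153 with means of 0.0289% and 0.0102%.

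The position with the highest mean in each genotype was T33 in FR1, the 3rd base of codon 11, where each change is silent. It held 29.95% of all T mutations, 99.8% of them T33G, in 236 sequences of 128 lineages. In Exo1+/+ mice the percentage of clones changed was 22.1 in mouse 6, 21.5 in mouse 7, 3.13 in mouse 5 and 1.39 in mouse 2. It was 39.0 in mouse 4, 20.9 in mouse 1, 8.91 in mouse 7 and 4.49 in mouse 5 among Exo1DA/DA mice, and 22.2 in mouse 3 among Exo1-/- mice. In the other 9 mice it lay between 0.00278 and 0.0608%, so the mice fell into those with the change in more than 1% of clones and those nearly without it, and both kinds were found in each genotype. The intervals were 16.3 to 28.5% in Exo1+/+ mouse 6, 23.7 to 59.4% in Exo1DA/DA mouse 4 and 13.9 to 32.3% in Exo1-/- mouse 3. The genotype means, in the same order, were 6.89% ± 10.2, 9.17% ± 14.0 and 7.43% ± 12.8 (exact permutation, adjusted p = 0.980, 0.947 and 0.963). With shared sequences removed, T33 was still changed in at least 1% of the clones of 9 mice. The percentages were then 22.4, 19.3, 2.13 and 1.69 in Exo1+/+ mice 6, 7, 5 and 2, and 40.2, 14.3, 6.07 and 7.78 in Exo1DA/DA mice 4, 1, 7 and 5, with 22.8 in Exo1-/- mouse 3. In Exo1DA/DA mouse 5 the change at T33 rested on 0.942 clones (interval 0.120 to 23.8%). Its percentage rose because the removal left 12.1 of its 21.0 mutated clones.

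T33G did not come alone. The stretch that holds it is printed with nucleotides 30, 33 and 58 in capitals, first as germline and then as found in most of these clones.

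germline nucleotides 27 to 61: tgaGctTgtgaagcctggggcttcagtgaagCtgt

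with G30A, T33G and C58G: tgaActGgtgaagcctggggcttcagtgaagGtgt

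G30A, a change 3 bases upstream, was present in 100%, 92.1%, 76.2% and 0% of the T33G clones of Exo1+/+ mice 7, 6, 5 and 2. In Exo1DA/DA mice 1, 7, 4 and 5 it was present in 100%, 89.9%, 52.1% and 50.7%, and in Exo1-/- mouse 3 in 100%. The shares of Exo1DA/DA mouse 5 are of 0.939 T33G clones. C58G was present in 66.7%, 63.8%, 70.3% and 0% of the T33G clones of Exo1+/+ mice 7, 6, 5 and 2, in 80.0%, 81.8%, 48.0% and 23.2% of those of Exo1DA/DA mice 1, 7, 4 and 5, and in 68.4% of those of Exo1-/- mouse 3. Exo1+/+ mouse 2 stood apart from the other 8 mice in having neither. Among the clones of these 9 mice without T33G, C58G was rare, with 0% to 4.65% of clones, the highest value being that of Exo1+/+ mouse 2, whereas G30A occurred in 0% to 32.1%. In Exo1+/+ mouse 2, whose T33G rested on 4.48 clones, the companions were A38G and G46T, both in 99.7% of the clones changed at T33. The remaining mutations of the T33G clones differed between mice, with a median of 1 further mutation in Exo1-/- mouse 3, 2 in Exo1+/+ mice 6 and 7, and 9 in Exo1DA/DA mouse 1. Where the combination came from was not tested.

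**Figure D4:**
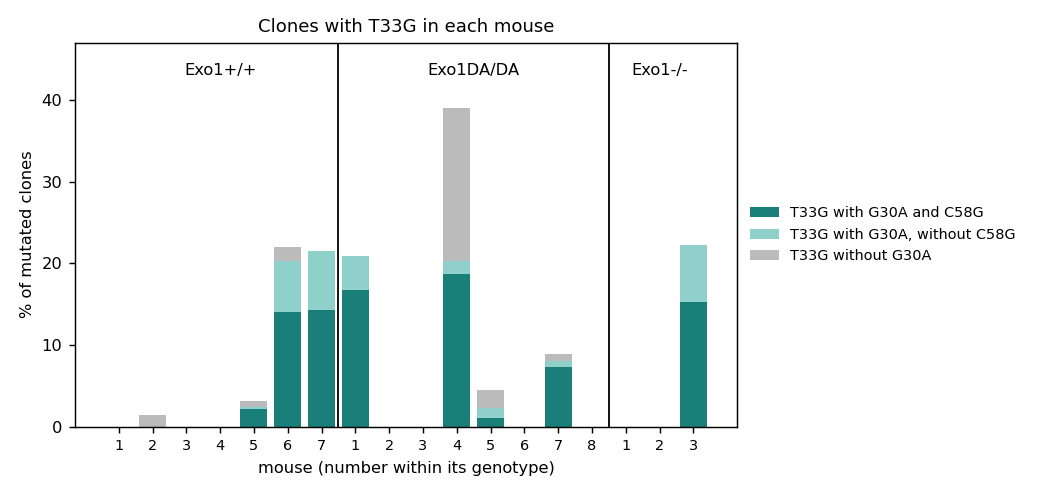
Bars give the percentage of mutated clones with T33G in each mouse, split by whether G30A and C58G were present in the same clone, with mice grouped by genotype. The 9 mice above 1% belong to all 3 genotypes, and in 8 of them G30A accompanies T33G in 50.7% or more of the clones. The 50.7% is that of Exo1DA/DA mouse 5 and rests on 0.939 T33G clones.

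T42 in FR1, the 3rd base of codon 14 and again silent, was changed in 21.1% of the clones of Exo1+/+ mouse 3 (interval 12.1 to 33.0%), in 2.04% of Exo1DA/DA mouse 3, which rests on 1 clone, and in 0.911% or less of all others. T42C made up 92.7% of the changes. In the Exo1+/+ mouse A222G was found in 70.5% of these clones and A281G in 63.4%, and in the Exo1DA/DA mouse both were found in 98.2%. The genotype means were 3.41%, 0.291% and 0.139%, with no difference beyond the spread between mice (exact permutation, lowest adjusted p = 0.719).

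T49, the first base of codon 17, where T49G replaces the amino acid, was changed in 29.8% of the clones of Exo1+/+ mouse 1 (interval 15.9 to 46.98%) and in 0.310% or less of each other mouse. It was T49G in 98.5% of cases. The clones of mouse 1 had a median of 11 mutations, with A56T and G30A each in 99.97% of them, and 81.8% were of 1 lineage. Of the clones of this mouse with T162A, a change at a TW site in CDR2, 100% carried T49G.

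T162, a TW site at the 3rd base of codon 54 in CDR2, was changed in 18.9% of clones in Exo1+/+ mouse 1 (interval 7.96 to 35.2%), 6.68% in mouse 2 and 1.70% in mouse 4. All 3 were Exo1+/+, and in each other mouse of any genotype the value was 0.0192% or less. The changes were T162A in mice 1 and 2 and T162C in mouse 4, and T162A, which replaces the amino acid, was 94.7% of the total. The companions were different in each mouse, with A56T and A100G in mouse 1, A200G and G186A in mouse 2, and A160T and C127T in mouse 4. The Exo1+/+ mean was 3.91% ± 7.06, against 0.00428% ± 0.00679 for Exo1DA/DA and 0.00844% ± 0.00527 for Exo1-/- mice, and the other 4 Exo1+/+ mice overlapped with the mutants.

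T85, a TW site in CDR1, was singled out after its values were seen, because it held 38.5% of TW and 13.2% of all T mutations. It was changed in 20.4% of the clones of Exo1+/+ mouse 2 (interval 16.1 to 25.2%), in 1.45% of Exo1DA/DA mouse 8, which is 1 clone, and in 0.963% or less of each other mouse. In the Exo1+/+ mouse the clones had a median of 14 mutations, 96.97% belonged to 1 lineage, and 77.3% of them were shared with another mouse. With shared sequences removed T85 was changed in 5.65% of the clones left in this mouse and in 0% of those of Exo1DA/DA mouse 8. The change was T85A, and in nearly all of them the 3 neighbouring changes C87T, A88G and C89G were present too, so that 4 of 5 adjacent bases differed from the germline. The stretch is printed with these bases in capitals.

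germline nucleotides 78 to 96: ctacaccTtCACcagctac

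with T85A, C87T, A88G and C89G: ctacaccAtTGGcagctac

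At the 3′ end of the window, in FR3, 10 T sites lie from T257 to T285, which is 17.9% of the T sites. The block begins at T257, a position named for its high mean in Exo1-/- mice, and was not compared by a test. Of the T mutations of a mouse they held 10.2% ± 8.09 in Exo1+/+ mice, with shares of 33.4% ± 39.1 for Exo1DA/DA and 35.0% ± 18.1 for Exo1-/- mice. The highest values in Exo1DA/DA mice were 99.02% in mouse 6 and 89.2% in mouse 2, and Exo1-/- mice 1, 2 and 3 had 55.9%, 24.4% and 24.7%. Some of these shares are of few T mutations per iteration, 8.87 in Exo1DA/DA mouse 2 and 2.68 and 6.37 in Exo1-/- mice 1 and 2. The Exo1DA/DA range reached down to 2.67%, the highest Exo1+/+ mouse had 25.6%, and both mutants overlapped with Exo1+/+. The frequency per site at these 10 sites had medians of 0.208%, 0.213% and 0.212% in Exo1+/+, Exo1DA/DA and Exo1-/-, with means of 0.289% ± 0.306, 1.49% ± 3.29 and 0.353% ± 0.384. The highest Exo1DA/DA value was 9.56%, in mouse 6, whose T mutations were all in shared sequences. At the other 46 sites its means were 0.583% ± 0.330, 0.308% ± 0.305 and 0.200% ± 0.279.

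T273, the 3rd base of codon 91, was changed in 32.4% of the clones of Exo1DA/DA mouse 6 (interval 23.7 to 42.1%), in 3.68% of Exo1DA/DA mouse 2 and in 0.865% or less of the others. In mouse 6 it was T273G in 58.1% and T273C in 41.0% of these clones, whereas in mouse 2 T273C made up 99.4%, and each of these changes is silent. The same mouse 6 had T280G and other changes at T280 (a TW site, replacement) in 17.9% of clones, changes at T283 (TW) in 15.3%, at T264 (silent) in 14.3% and at T271 (replacement) in 13.1%. T271 and T283 lie outside the rule for named positions and were added after their values were seen. The stretch around them is printed with T264, T271, T273, T280 and T283 in capitals, and the second line joins the most frequent change of each, which does not stand for a single clone.

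germline from 6 bases before T264: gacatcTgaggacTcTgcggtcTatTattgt

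with T264C, T271G, T273G, T280G and T283G: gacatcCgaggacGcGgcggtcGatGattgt

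All of these clones of Exo1DA/DA mouse 6 carried C158T, C180T, G114A, G177A and G289A and formed 1 lineage, and each matched sequences of other mice. The T changes distinguished the members of the lineage, and 65.8% of its T clones had a single one. With shared sequences removed this mouse had no T mutation left. The genotype means at T273 were 0.0773%, 4.68% ± 11.3 and 0.0253%, and at T280 they were 0.0911%, 2.30% ± 6.29 and 0.492% ± 0.810. No genotype difference at these 2 sites passed the test (exact permutation, lowest adjusted p = 0.741 at T273 and 0.940 at T280 for a mutant against Exo1+/+).

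T257 and T264 were changed in many lineages. At T257, where T257C replaces the amino acid, 194 lineages were found, and the values reached 6.03% in Exo1+/+ mouse 1, 6.06% in Exo1DA/DA mouse 2 and 1.47% in Exo1-/- mouse 3, with 0.707% or less elsewhere. The means were 1.13%, 0.951% and 0.649% (exact permutation, adjusted p = 0.894, 0.947 and 0.963), and each of the 3 high values rested on fewer than 5 clones. At T264, where T264C was 90.6% of the changes, 168 lineages were found and 5 mice reached 1%, with 14.3%, 2.25% and 1.47% in Exo1DA/DA mice 6, 5 and 2, 1.11% in Exo1+/+ mouse 3 and 4.76% in Exo1-/- mouse 3. The values of Exo1DA/DA mice 5 and 2 and Exo1+/+ mouse 3 rested on less than 1 clone each (0.472, 0.842 and 0.737). Exo1DA/DA mouse 6, with its single lineage, held 62.8% of all T264 mutations, and with shared sequences removed the values of Exo1DA/DA mice 6 and 5 were 0%. The means were 0.317% ± 0.367, 2.47% ± 4.83 and 1.63% ± 2.72 (exact permutation, adjusted p = 0.723, 0.940 and 0.963). The mutant means were higher than that of Exo1+/+, but 5 of 8 Exo1DA/DA and 2 of 3 Exo1-/- mice lay within the Exo1+/+ range or below it.

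The new base was counted next. Polymerase errors at A:T pairs and the change of T to C, a transition, are commonly reported as shares of all T mutations. Pooled over mice, 54.8% of T mutations were to G, 23.1% to C and 22.1% to A. At TW sites the new base was A in 60.6%, C in 17.5% and G in 22.0%, and at other T sites it was G in 72.0%, C in 26.04% and A in 1.91%. These pooled shares follow the leading clones, since T85A and T162A are at TW and T33G is at an other T site.

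Taken per mouse, T to C made up 6.31% to 89.2% of T mutations in Exo1+/+ mice with a median of 20.3%, 4.24% to 81.8% in Exo1DA/DA mice with a median of 18.7%, and 77.2%, 77.7% and 23.4% in the Exo1-/- mice. The values at or below 10.5% were those of Exo1+/+ mice 6 and 7 and Exo1DA/DA mice 1, 4 and 7, in which T33 was the most mutated T site, and of Exo1DA/DA mouse 8. Those of 73.2% or more were those of Exo1+/+ mice 3 and 4, Exo1DA/DA mice 2 and 3 and Exo1-/- mice 1 and 2. The means were 37.4% ± 33.0, 29.6% ± 31.5 and 59.4% ± 31.2, and no pair of genotypes differed beyond the spread (exact permutation, p = 0.639, 0.325 and 0.255, adjusted p = 0.805). The difference of -7.74 between Exo1DA/DA and Exo1+/+ mice turned to 0.542 without T33 and to 0.902 without Exo1+/+ mouse 3, and it was -15.2 with shared sequences removed, -15.6 without clones of more than 10 mutations and -15.2 without Exo1DA/DA mouse 2. T to C was a larger share at TW than at other T sites by 14.9 (Exo1+/+), 15.7 (Exo1DA/DA) and 20.9 (Exo1-/-) percentage points, in 3 of 7, 6 of 8 and 3 of 3 mice (exact permutation of signs, p = 0.4375, 0.273 and 0.25). In several mice the TW share rested on less than 1 TW mutation per iteration. These were Exo1+/+ mouse 3 (0.260), Exo1DA/DA mice 1, 3, 4 and 5 (0.435, 0.169, 0.244 and 0.085) and Exo1-/- mice 2 and 3 (0.470 and 0.614). Without T33 the sign turned in Exo1+/+ (-2.55) and Exo1DA/DA mice (-13.8).

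**Figure D5:**
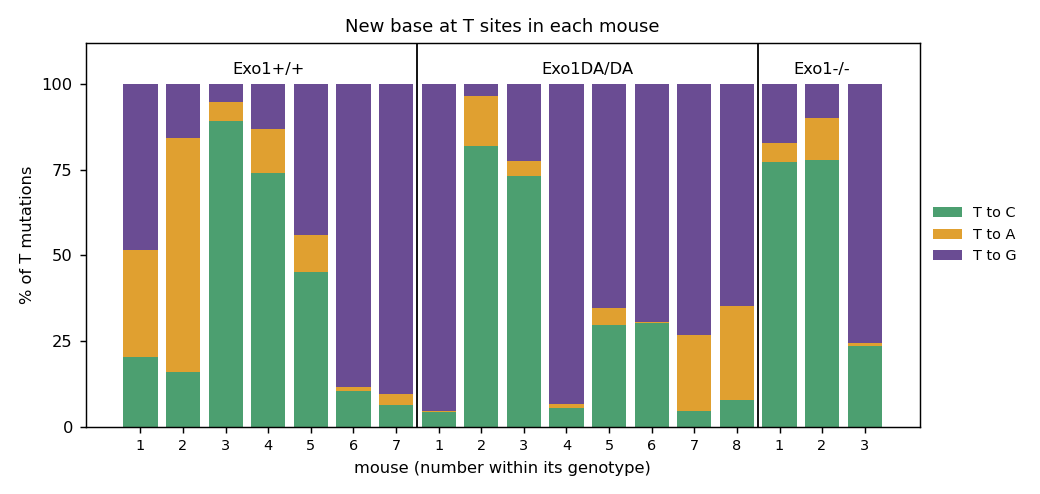
Stacked bars show, for each mouse, the percentage of its T mutations in which the new base was A, C or G, with mice grouped by genotype. T to G fills 64.7% or more of the bar in Exo1+/+ mice 6 and 7, Exo1DA/DA mice 1 and 4 to 8 and Exo1-/- mouse 3, and T to C 73.2% or more in Exo1+/+ mice 3 and 4, Exo1DA/DA mice 2 and 3 and Exo1-/- mice 1 and 2.

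The new base was also set against how often a sequence was drawn, with the mice pooled. By this sampling a sequence that was the sole sequence of its clone was drawn in all 1000 iterations, and one from a clone with many sequences was drawn in few. The 374 sequences with a T mutation that were drawn in each iteration gave 413 T mutations per iteration at 30 positions, of which 15.98% were T to C and 61.02% T to G. The 4329 sequences drawn in fewer than 50 iterations gave 27.3 per iteration at all 56 positions, and, counted 1 time each, 56.5% of their T mutations were T to C and 20.6% T to G. The share of T to C among these rarely drawn sequences was 58.04% for Exo1+/+ mice, with 51.0% and 60.9% for Exo1DA/DA and Exo1-/- mice. Among those drawn in each iteration it was 14.5%, 16.4% and 25.9% in this order. Mouse by mouse the direction was not uniform. T to C was a smaller share of the always drawn than of the rarely drawn sequences in 6 of 7 Exo1+/+ mice, 5 of 7 Exo1DA/DA mice and 1 of 3 Exo1-/- mice, and a larger one in the others, while 1 Exo1DA/DA mouse had no always drawn sequence with a T mutation.

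If each lineage was counted 1 time, which gives the rarely drawn sequences more weight, the T frequency and the T to C share varied less between the mice of a genotype. This did not hold for TW in Exo1-/- mice, where the SD of the frequency was 0.215 in place of 0.0685 and that of the T to C share 16.5 in place of 4.21. The T frequency was then 0.401% ± 0.0362 for Exo1+/+ mice, against 0.351% ± 0.144 for Exo1DA/DA mice and 0.297% ± 0.210 in Exo1-/- mice. The T to C share was 61.1% ± 5.43, 47.4% ± 11.9 and 72.7% ± 24.0. It was lower in Exo1DA/DA than in Exo1+/+ mice by 13.7 percentage points (exact permutation, p = 0.0110) and lower than in Exo1-/- mice by 25.3 (exact permutation, p = 0.0303). These 2 p-values are unadjusted. With clones weighted by their draws the differences were -7.74, which turned as given above, and -29.8, and did not exceed the spread between mice (exact permutation, p = 0.639 and 0.255). Exo1DA/DA mice 5 and 6, with 29.6% and 30.2%, had 7 and 4 lineages in all and Exo1-/- mouse 2, with 99.5%, had 43, where the other mice had 464 to 1917. The T to C share of Exo1DA/DA mice 5 and 6 rested on 1 lineage with a T mutation each. That of Exo1-/- mouse 2 rested on 4 such lineages, where the other mice had 91 to 464. Without Exo1-/- mouse 2 the difference between the mutants was -11.9 (exact permutation, p = 0.2), and without all 3 of these mice it was -6.07 (exact permutation, p = 0.286). Without Exo1DA/DA mice 5 and 6 the difference from Exo1+/+ mice was -7.91 (exact permutation, p = 0.0303).

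The sites were further grouped by the next base and by the codon. The 24 sites followed by G, 42.9% of the T sites, held 58.5% ± 37.2 of the T mutations of an Exo1+/+ mouse, 79.5% ± 15.6 of those of an Exo1DA/DA mouse and 62.9% ± 40.3 of those of an Exo1-/- mouse. T33, T42, T110, T257, T264 and T273 are of this kind, and the 23 sites without T33 held 31.2% ± 30.5, 40.2% ± 34.1 and 39.3% ± 34.1. The 22 sites at the 3rd base of a codon, 39.3% of the sites, held 69.4%, 70.9% and 57.8%. Of the 168 base changes possible at the 56 sites 52 are silent (31.0%), and silent changes made up 60.1% ± 38.5, 70.03% ± 23.8 and 57.1% ± 38.9 of the T mutations in Exo1+/+, Exo1DA/DA and Exo1-/- mice. Without T33 these shares were 50.4% ± 35.4, 41.6% ± 25.9 and 47.5% ± 30.4, where 29.7% of the possible changes are silent. Changes to a stop codon, 2.38% of those possible, were 0.211%, 0.526% and 0.347%. Most of these shares varied widely between mice. Beyond the removal of T33, the part of the leading clones in them was not tested.

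Further T sites reached 1% of clones in 1 or 2 mice, and were picked after their values were seen. T110G was found in Exo1DA/DA mouse 8 in 16.7% of clones (interval 9.32 to 28.4%), with G102A and G92A in 99.9% of these, and in 1 clone of Exo1+/+ mouse 4. T75G was found in 5.58% of the clones of Exo1+/+ mouse 7 with A116T, C83T, G114A and G92C, and T183G in 4.51% of Exo1+/+ mouse 2 with G98T, the change in codon 33, in 99.04%. T72C was found in 4.26% of Exo1+/+ mouse 4 and T159A in 5.93% of Exo1DA/DA mouse 8. In each of these the value in the other mice was below 1%, except for T110 in Exo1+/+ mouse 4.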

How the data were processed

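Somatic hypermutation of VH186.2 was read from spleen cDNA of 18 mice. The authors merged MiSeq read pairs, collapsed reads with the same molecular identifier, and used IMGT/HighV-QUEST to define clones by CDR3. They then sampled each clone 1000 times, taking a single sequence every time. The versions of their programs are not given in the sources used here. The 3 deposited lists hold 1 line per mutation and no counts. The columns used were the sequence name, dataset number, iteration, base, new base, motif and nucleotide position, a whole number that the authors deposited as a score of place and not as a measured level, and 0 columns were left unmapped. Read depth per mouse is not in the lists, so precision is given by the number of mutated clones.

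A sequence was weighted by its number of draws divided by 1000. The frequency of a class of sites is the mean percentage of a mouse's mutated clones changed per site. For genotypes the difference between mean values was set against each of the 6435, 120 or 165 ways to divide the mice (exact permutation, 2-sided). Site classes were compared within a genotype by exact sign changes, and single positions over all 276 positions, with Benjamini-Hochberg adjustment over 15, 9 and 276 tests. The mouse was the unit, in place of the pooled chi-squared test of the study's methods, which is kept as an alternative. CDR1 and CDR2 were those of IMGT, nucleotides 76 to 99 and 151 to 174, and codons were read with the standard genetic code.

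Positions named in the text are the 4 T sites with the highest mean in each genotype together with, for each mutant, the 2 that rose most and the 2 that fell most, and others are said to be chosen after their values were seen. The sites, lists and tests were chosen with earlier results of these data known. Alternatives covered the iterations, the counting of sequences, the window, the denominator, heavily mutated clones, shared sequences, the motif, the test and each mouse left out. Leaving out nucleotide 33, taking only sequences drawn in all 1000 iterations, keeping shared sequences only in the mouse with most of them, and leaving mice with fewer than 50 lineages out of the lineage counts were added after seeing the data. The steps were tested on simulated lists: 12510 values were recovered with a largest error of 1.78e-15, and of 200 comparisons of 8 with 7 mice 6 had p below 0.05 without a difference and 197 with T mutations at 0.4 of the other group. The simulated clones were independent, their T sites were mutated more often, and the simulated mice varied less than the real ones. The 197 therefore does not give the power reached in these data. Python 3.11.15, NumPy 2.4.6, SciPy 1.17.1, pandas 2.3.3 and matplotlib 3.10.9 were used. No other V segment sequence was used here, so reads of related V segments were not searched for.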

Additional observations from a re-analysis of the deposited data

Results flagged for a closer look

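In groups of 4 to 10 mice, the highest mouse was set against the next by Dixon's ratio at the 95% level. Chance passes about 1 of 20 groups, but that rate does not apply at single positions here, since they were named for high means or large differences. Of 30 groups tested 15 passed, 12 of them at single positions. All are single mice at the upper end, and the next highest mouse is given with each.

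Exo1DA/DA mouse 6 stood apart in 6 of them. Its T frequency was 1.72% against 0.770%, its TW frequency 1.67% against 0.363%, and its difference of T minus A sites 1.62 against 0.283. At T273 it had 32.4% of clones changed against 3.68%, at T280 17.9% against 0.248% and at T264 14.3% against 2.25%. All T mutations of this mouse were in sequences that matched sequences of another mouse. The part of the shared sequences in these values was not tested beyond their removal, which left this mouse without a T mutation.

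Exo1+/+ mouse 1 stood apart at T49 with 29.8% against 0.310%, at T162 with 18.9% against 6.68% and at T257 with 6.03% against 0.707%. Exo1+/+ mouse 3 did so at T42 with 21.1% against 0.911% and at T264 with 1.11% against 0.414%, and Exo1+/+ mouse 2 at T280 with 0.406% against 0.0587%. Among Exo1DA/DA mice, mouse 2 stood apart at T257 with 6.06% against 0.473%, mouse 3 at T42 with 2.04% against 0.106%, and mouse 8 at T49 with 0.0478% against 0.0160%. The values of Exo1+/+ mouse 2 at T280 and mouse 3 at T264 and of Exo1DA/DA mice 3 and 8 rest on fewer than 2 clones each.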

How the results depend on the processing

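No paired analysis was possible because the dataset numbers of the lists carry no replicate number that the groups share. Values are differences in percentage points, Exo1DA/DA or Exo1-/- minus Exo1+/+ or Exo1DA/DA minus Exo1-/- in this order where 3 are given, and p-values are unadjusted exact permutation tests unless named. Under the first or the last 500 iterations, TW taken from the germline, mean ranks, and shared sequences kept in 1 mouse, no result changed its direction or its side of 0.05. TW taken from the germline gives the same 21 sites, so that agreement was fixed in advance. The iteration parts could differ little, since 413 of 516.5 T mutations per iteration came from sequences drawn in all 1000 iterations. The pooled chi-squared test, which takes clones as independent, gave 0.0392 (p = 0.485), -0.387 (p = 9.16e-14) and 0.426 (p = 9.05e-15) for T, -0.280 (p = 0.00128), -0.619 (p = 4.11e-12) and 0.339 (p = 1.01e-06) for TW, 0.231, -0.248 and 0.478 for other T (p = 7.74e-04, 1.17e-04 and 1.004e-09), and 1.70 (p = 0.694) for the T to C share of Exo1DA/DA against Exo1+/+. For T against A in Exo1+/+ mice, which had an exact permutation p = 0.0625, the value was -1.49 with all positions and codon 33, -0.580 with each sequence counted 1 time, -0.617 with identical sequences counted 1 time and -1.24 without nucleotide 33, each past 0.05. In Exo1DA/DA mice the same difference turned to -0.461, -0.0114, -0.0524 and -0.0328 in this order, to -0.00878 with lineages counted 1 time and to -0.0509 without shared sequences, and in Exo1-/- mice to 0.0221 with mutations as the denominator. TW against other T in Exo1DA/DA mice lost p below 0.05 with lineages counted 1 time (-0.0489), without nucleotide 33 (-0.106) and with only sequences drawn in all 1000 iterations (-0.328). In Exo1+/+ mice it was 0.0365 with each sequence and 0.0670 with identical sequences counted 1 time, 0.0976 without nucleotide 33, and -0.0887 (exact permutation p = 0.0156) with lineages counted 1 time. With lineages counted 1 time the T to C share differed by -13.7 (exact permutation p = 0.0110) between Exo1DA/DA and Exo1+/+ and by -25.3 (exact permutation p = 0.0303) between Exo1DA/DA and Exo1-/- mice, and without mice with fewer than 50 lineages the 3 differences were -7.91 (exact permutation p = 0.0303), -1.84 and -6.07. Under the same counting with all mice the difference of TW minus other T turned to 0.0398, 0.0107 and 0.0291. Without nucleotide 33 the T to C share differed by 0.542 between Exo1DA/DA and Exo1+/+ mice. The T to C share at TW against other T turned to -4.10, -3.42 and -0.965 in Exo1+/+, Exo1DA/DA and Exo1-/- mice with each sequence counted 1 time, and to -6.24, -1.60 and -1.38 with identical sequences. It was -7.31 and -6.90 in Exo1DA/DA and Exo1-/- mice with lineages, -2.55 and -13.8 in Exo1+/+ and Exo1DA/DA mice without nucleotide 33, and -14.3 in Exo1DA/DA mice with only sequences drawn in all 1000 iterations. Other T in Exo1DA/DA against Exo1+/+ turned to -0.0297, -0.0566 and -0.0650 with each sequence, identical sequences or lineages counted 1 time and to -0.173 without shared sequences. Without clones of more than 10 mutations T and TW in Exo1DA/DA against Exo1+/+ were 0.0512 and 0.00860, and with identical sequences counted 1 time TW in Exo1DA/DA against Exo1-/- was -0.00627. With mutations as the denominator T in Exo1-/- against Exo1+/+ was -0.0119, other T was -0.0178, 0.0309 and -0.0487, T in Exo1DA/DA against Exo1-/- -0.0153, and the difference of TW minus other T between them 0.0893. Positions past an adjusted p of 0.05 numbered 0 at T sites in each alternative in which they were tested. Comparisons with fewer than 2 values in a group have no value with only sequences drawn in all 1000 iterations. The cause of these changes was not tested.

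With each mouse left out in turn, T ranged from -0.184 to 0.0843, -0.475 to -0.208 and 0.120 to 0.463, TW from -0.375 to -0.00359, -0.492 to -0.240 and 0.0404 to 0.277, and other T from -0.0689 to 0.184, -0.518 to -0.0856 and 0.168 to 0.607. The T to C share ranged from -15.2 to 0.902, 13.0 to 40.1 and -47.8 to -20.7, and the difference of TW minus other T from -0.382 to -0.0399, -0.369 to 0.116 and -0.384 to 0.100. Within Exo1+/+, Exo1DA/DA and Exo1-/- mice, TW against other T ranged from -0.317 to 0.0257, -0.394 to -0.240 and -0.457 to 0.0277, T against A from -1.32 to -0.633, -0.0893 to 0.244 and -0.228 to 0.0424, and the T to C share at TW against other T from 4.73 to 21.5, 6.91 to 23.7 and 5.45 to 28.8. The 23.7 was without Exo1DA/DA mouse 6 (exact permutation p = 0.0469). The ends of these ranges were most often those without Exo1-/- mouse 3 or Exo1DA/DA mouse 6. Without Exo1-/- mouse 1 and without mouse 3, other T against Exo1+/+ mice was -0.0856 and -0.518, and without Exo1+/+ mouse 2 TW in Exo1DA/DA against Exo1+/+ mice was -0.00359.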
